A study of Homo sapiens with 6 samples.

Results

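NF-kB is a family of dimeric transcription factors that carries inflammatory and survival signals from the cell surface to the genome. Its 5 subunits share a Rel homology domain. In resting cells the dimers are held in the cytoplasm by inhibitors of the IkB type, which the IKK kinases mark for destruction after a stimulus. Several of the genes that NF-kB then activates encode its own brakes, among them NFKBIA and TNFAIP3, so that the response limits itself. The 10 genes described here, out of 27420 listed, are the rows of the deposited expression table that carry the symbols of the Rel subunits (RELA, RELB, REL, NFKB1 and NFKB2), of 2 inhibitors (NFKBIA and NFKBIE), of the ubiquitin-editing enzyme TNFAIP3, also called A20, and of the cellular inhibitor of apoptosis ubiquitin ligases BIRC2 and BIRC3. All 10 symbols were found, each in 1 row.

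RNA was sequenced from 6 libraries of the established Ewing sarcoma cell lines A673 and SKNMC. For 6 h, cells of each line received THZ1 at a dose of 50 nM or of 200 nM, or the vehicle DMSO alone; THZ1 is a covalent inhibitor of CDK7, a kinase that phosphorylates the tail of RNA polymerase II. Each condition has 1 library, so no difference could be set against a spread between replicates and no test across libraries was made. Levels are in FPKM, fragments scaled to transcript length and library size, which can be set side by side between genes. The number of reads per library is unknown; the sums of the listed FPKM of the THZ1 libraries were between 97.8% and 100.5% of that of the DMSO library of their line.

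A gene was taken as active in a line when its FPKM with DMSO was above 1. Changes are log2 ratios of FPKM with 1 added to both values, so that folds of genes near 1 FPKM come out too small, and the words rose and fell are kept for active genes past 2-fold. The cells expressed the genes by which Ewing sarcoma is recognised: 8 of 8 markers, among them CD99, NKX2-2 and NR0B1, were above 1 FPKM in all 6 libraries. Their summed level was 1552, 1320 and 1455 FPKM in A673, in the order of rising dose from DMSO, and 1075, 775 and 718 FPKM in SKNMC. Most of this sum is CD99 and CCND1, and single markers differ from it: from DMSO to 200 nM, FLI1 went from 31.5 to 4.26 FPKM in A673 and from 27.3 to 4.56 FPKM in SKNMC, NR0B1 from 58.6 to 7.97 and from 25.2 to 8.10, NKX2-2 from 14.8 to 3.60 and from 37.6 to 11.4, and BCL11B from 9.15 to 3.64 and from 21.4 to 8.88, while CD99 went from 504 to 763 and from 313 to 346, and PRKCB from 47.9 to 63.9 and from 71.6 to 66.3. CCND1 was the most abundant of them with DMSO in both lines, and CD99 in the 4 THZ1 libraries. Of 5 leukocyte markers, 1 was above 1 FPKM in A673 (CD79A, at 7.56 FPKM with DMSO) and 2 in SKNMC (PTPRC at 10.2 and CD79A at 7.65 FPKM with DMSO). CD3E was listed at 0 in all 6 libraries. The summed level of the leukocyte list was 7.74, 7.65 and 9.76 FPKM in A673 and 18.1, 15.1 and 20.9 FPKM in SKNMC. The part of the PTPRC difference in the differences between the lines was not tested. None of the 2 endothelial and 3 epithelial markers measured was above 1 FPKM in any library. The summed endothelial level was at most 0.127 FPKM, with VWF listed at 0 in 5 libraries and CDH5 the most abundant with DMSO, and the summed epithelial level was at most 0.839 FPKM, with KRT5 listed at 0 in all 6 and EPCAM the most abundant with DMSO. In bulk RNA, fewer cells of a type and less RNA per cell cannot be told apart.

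With DMSO, the transcripts of the canonical pair, RELA and its inhibitor NFKBIA, were the most abundant of the 10 genes in both lines. In A673 the order of levels was NFKBIA at 42.1 FPKM, RELA at 39.2, BIRC2 at 19.7, NFKB1 at 7.28, NFKB2 at 4.05, RELB at 3.83, TNFAIP3 at 1.83, NFKBIE at 1.75, REL at 1.71 and BIRC3 at 0.639 FPKM. In SKNMC it was RELA at 35.2 FPKM, NFKBIA at 22.5, BIRC2 at 15.5, NFKB1 at 7.98, REL at 2.92, NFKB2 at 2.42, RELB at 2.34, NFKBIE at 2.01, TNFAIP3 at 1.43 and BIRC3 at 0.635 FPKM. Neighbours such as NFKBIE and REL in A673, or NFKB2 and RELB in SKNMC, lie so close that their order cannot be held against an error. RELA was above 78.1% of the active genes of A673 and 78.5% of those of SKNMC, while TNFAIP3 was above 6.90% and 4.41%. Genes with low levels, namely RELB, REL, NFKB2, NFKBIE, TNFAIP3 and BIRC3, rest on fewer fragments per base than RELA and NFKBIA, and their folds are less certain. BIRC3 was not active in either line, so counts of changed genes run over the other 9.

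Between the lines with DMSO, 0 of the 9 active genes were higher in A673 past 2-fold, where 8.42% of all active genes were, and 0 were higher in SKNMC, where 15.0% were. NFKBIA came nearest, with a log2 ratio of A673 over SKNMC of 0.88. RELB (0.53) and NFKB2 (0.56), which form the dimer of the alternative NF-kB pathway, had about equal ratios, and REL had -0.53. RELA was at 0.15, a value that turned to -0.018 when libraries were divided by the 75th percentile of active genes. With ribosomal protein genes as the scale, NFKBIA passed 2-fold, at 1.33, while NFKB1 went from -0.12 to 0.30 and NFKBIE from -0.13 to 0.17. These scalings moved the median ratio of all active genes by -0.15 and by 0.42.

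**Figure D1:**
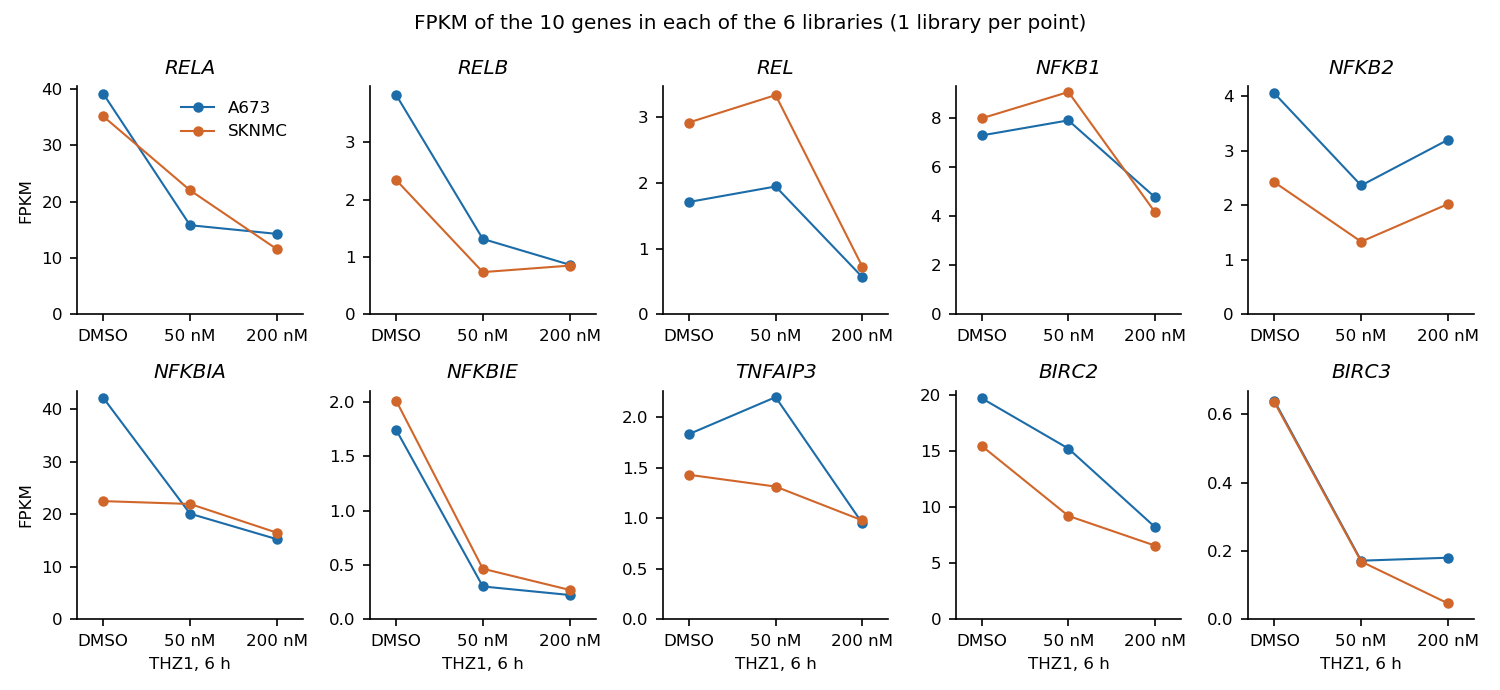
FPKM (vertical axes, from 0, on a separate scale for each gene) of the 10 genes against treatment, for A673 (blue) and SKNMC (orange); each point is 1 library. RELA, NFKBIA, NFKBIE and BIRC2 were lower at each higher dose in both lines (NFKBIA in SKNMC not with the 75th percentile scaling). REL and NFKB1 were above their DMSO level at 50 nM (not with the ribosomal protein scaling) and below it at 200 nM.

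In A673, 4 of the 9 active genes fell at least 2-fold at 50 nM THZ1 (RELA, RELB, NFKBIA and NFKBIE), and 5 fell at 200 nM (the same 4 and BIRC2). The background in A673 was 15.9% of all active genes at the low dose and 25.3% at the high dose. In SKNMC, NFKBIE alone (1 of 9) fell at 50 nM, where 15.8% of all active genes did, and 4 fell at 200 nM (RELA, REL, NFKBIE and BIRC2), where 27.3% did. These counts depend on the scale. With the 75th percentile scaling 2 fell in A673 at 50 nM (beside 11.0% of all active genes), and in SKNMC 0 at 50 nM (beside 10.3%) and 1 at 200 nM (beside 13.4%), while with the ribosomal protein scaling 4 of 9 fell in SKNMC at 50 nM (beside 28.0%). No member rose at least 2-fold in any of these comparisons, and few genes did with the FPKM as deposited. The shares over all active genes were 0.343% and 0.126% in A673 and 0.471% and 0.462% in SKNMC, with the low and the high dose. With the 75th percentile scaling these shares were 0.767% and 1.01% in A673 and 1.24% and 4.33% in SKNMC. In A673 the 9 genes had a median log2 fold change of -0.59 with the low and -1.17 with the high dose, beside -0.27 and -0.40 over all active genes. The SKNMC medians were -0.55 and -0.86, beside -0.32 and -0.55. Both doses of a line are set against the same DMSO library. The difference between the lines in these counts was not tested.

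**Figure D2:**
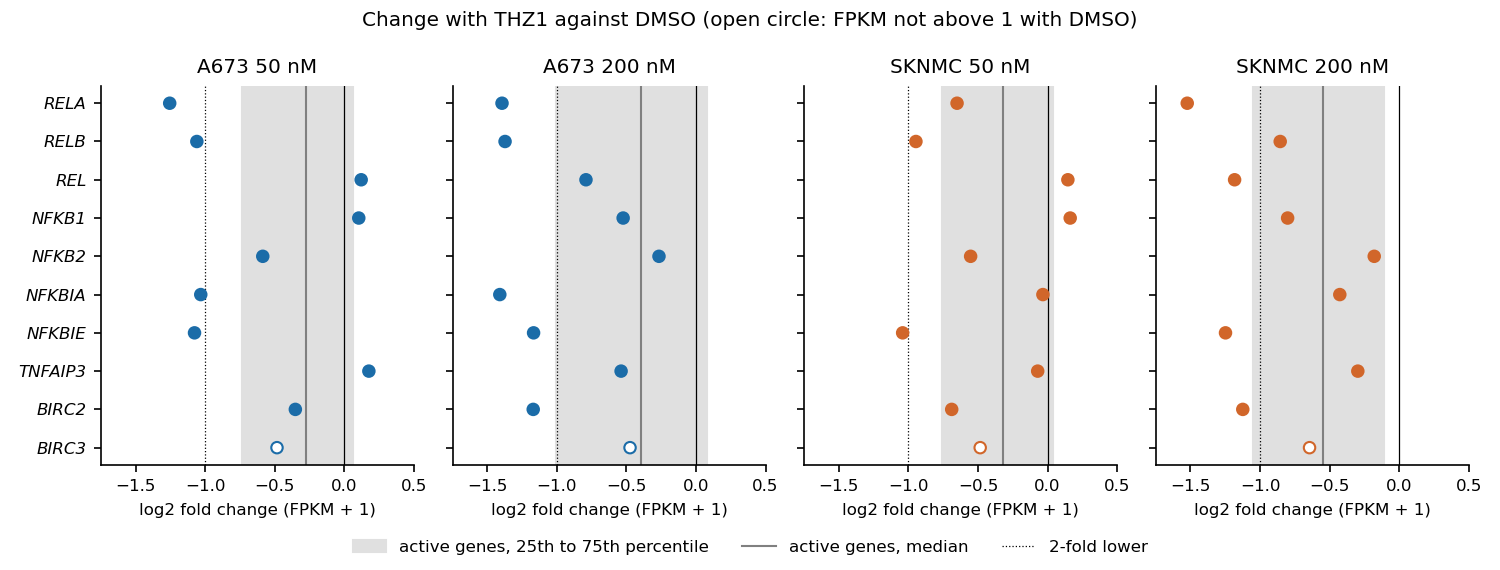
Log2 fold change with 1 added to FPKM (horizontal axes) of each gene in the 4 comparisons of THZ1 with DMSO, 1 library against 1. Filled circles are active genes and the open circle is BIRC3; the grey band spans the 25th to 75th percentile of all active genes, the grey line is their median and the dotted line marks 2-fold lower. RELA, RELB, NFKBIA and NFKBIE lie past the dotted line at both doses in A673, and NFKBIE does so in all 4 panels.

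FPKM is a share of each library, and other scalings move all genes together. Division by the 75th percentile of active genes shifted the overall median of active genes by 0.22 with the low and 0.32 with the high dose in A673, and by 0.25 and 0.48 in SKNMC. Division by the median of 83 ribosomal protein genes shifted it by -0.19 and -0.29 in A673 and by -0.34 and -0.47 in SKNMC. Values closer to 0 than these shifts have no firm sign, and the sign changed under 1 of the scalings for 10 of the 40 values of the 10 genes in the 4 comparisons. These were REL and NFKB1 at 50 nM in both lines, NFKB2 at 200 nM in both lines, and NFKBIA and TNFAIP3 at both doses in SKNMC. With the 75th percentile scaling, 7 falls no longer passed 2-fold: RELB (-0.91) and NFKBIA (-0.79) at 50 nM and BIRC2 (-0.83) at 200 nM in A673, and NFKBIE (-0.94) at 50 nM and RELA (-0.99), REL (-0.92) and BIRC2 (-0.62) at 200 nM in SKNMC. With the ribosomal protein scaling, 5 more values passed it, all in SKNMC: RELA (-1.04), RELB (-1.11) and BIRC2 (-1.05) at 50 nM and RELB (-1.10) and NFKB1 (-1.27) at 200 nM.

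**Figure D3:**
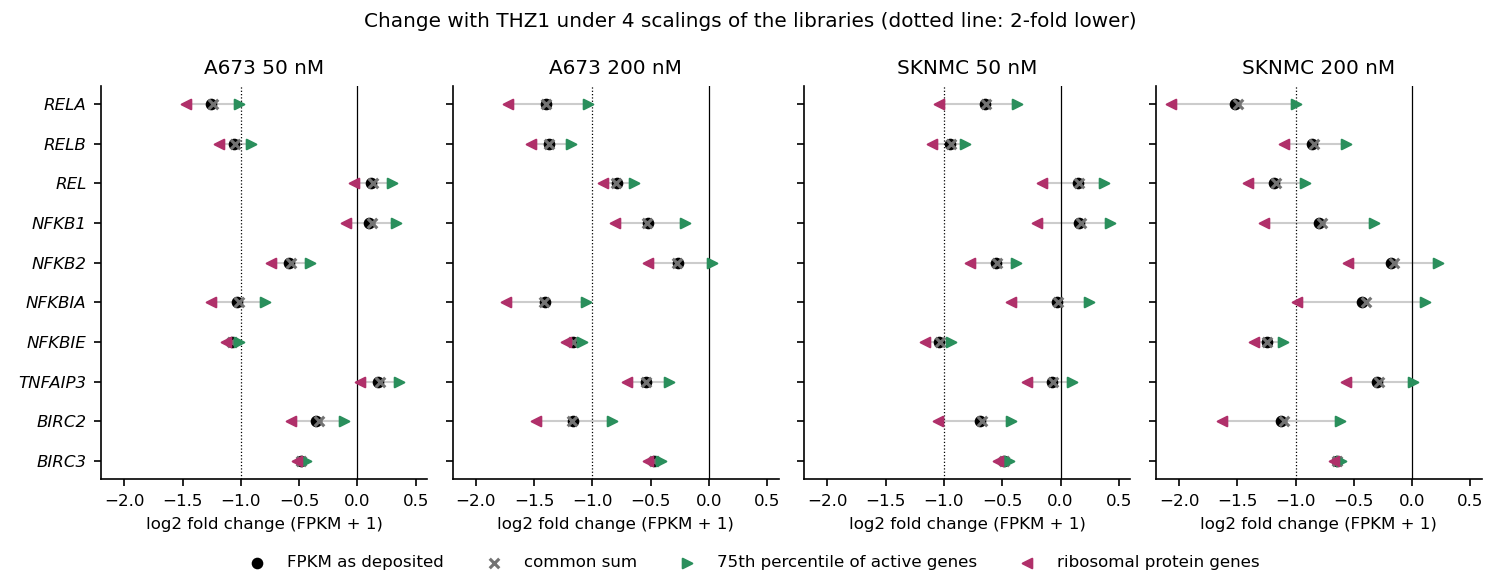
Log2 fold change of each gene (horizontal axes) with the FPKM as deposited (black circles), rescaled to a common sum (grey crosses), divided by the 75th percentile of active genes (green triangles) or divided by the ribosomal protein genes (purple triangles), in the 4 comparisons of THZ1 with DMSO. RELA, RELB, NFKBIE, BIRC2 and BIRC3 stay left of 0 under all 4 scalings in every panel.

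RELA encodes p65, the subunit with the strong activation domain of the classical dimer. It is on the minus strand of chromosome 11 (hg19, chr11:65421066-65430565; 11 exons). Its transcript was at 39.2, 15.8 and 14.3 FPKM in A673, again from DMSO to the high dose, and at 35.2, 22.0 and 11.6 FPKM in SKNMC. In A673 nearly the whole drop was present at the low dose, with log2 fold changes of -1.26 and -1.39, while in SKNMC the values were -0.65 and -1.52, the latter -0.99 with the 75th percentile scaling. At 200 nM the transcript stood at 36.5% of its DMSO level in A673 and at 32.9% in SKNMC.

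RELB, the partner of p52 in the alternative pathway (plus strand, chr19:45504687-45541452; 12 exons), was at 3.83, 1.32 and 0.865 FPKM in A673 and at 2.34, 0.736 and 0.849 FPKM in SKNMC. Its log2 fold changes were -1.06 (-0.91 with the 75th percentile scaling) and -1.37 in A673 and -0.95 and -0.86 in SKNMC. The SKNMC values miss the threshold with 1 added to the FPKM, although the transcript stood at 31.4% of DMSO at 50 nM and 36.2% at 200 nM. NFKB2 encodes p100, the precursor of p52 (plus strand, chr10:104153866-104162281; 23 exons). It was at 4.05, 2.36 and 3.20 FPKM in A673 and at 2.42, 1.33 and 2.02 FPKM in SKNMC, and did not pass 2-fold. It alone of the 10 genes had its lowest level at 50 nM in both lines. RELB and NFKB2 were nearly equal with DMSO, at a ratio of 0.946 in A673 and 0.969 in SKNMC. With the high dose this ratio was 0.271 in A673 and 0.420 in SKNMC.

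REL encodes c-Rel, known best from lymphocytes (plus strand, chr2:61108655-61158745; 10 exons). It was at 1.71, 1.94 and 0.565 FPKM in A673, and at 2.92, 3.33 and 0.726 FPKM in SKNMC. The log2 fold changes at 50 nM were 0.12 and 0.15, and they became -0.028 and -0.16 with the ribosomal protein scaling. At 200 nM they were -0.79 in A673 and -1.18 in SKNMC, where REL fell (-0.92 with the 75th percentile scaling). NFKB1 encodes p105, the precursor of p50 (plus strand, chr4:103422485-103538459; 24 exons), and is the longest of the 10 genes. It was at 7.28, 7.89 and 4.76 FPKM in A673 and at 7.98, 9.05 and 4.15 FPKM in SKNMC. Its log2 fold changes of 0.10 and 0.16 at 50 nM became -0.10 and -0.20 with the ribosomal protein scaling. At 200 nM they were -0.52 and -0.80, short of 2-fold, though the SKNMC value was -1.27 with the ribosomal protein scaling.

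NFKBIA encodes IkB alpha, the inhibitor that is rebuilt first after NF-kB has been active (minus strand, chr14:35870716-35873955; 6 exons). It was at 42.1, 20.1 and 15.2 FPKM in A673, and at 22.5, 21.9 and 16.5 FPKM in SKNMC. The level that set the lines apart was that of A673 with DMSO; the THZ1 libraries of both lines lay between 15.2 and 21.9 FPKM. The log2 fold changes were -1.03 and -1.41 in A673 and -0.034 and -0.43 in SKNMC, and with the 75th percentile scaling the A673 value at 50 nM was -0.79, short of 2-fold, and the SKNMC values became 0.25 and 0.12. NFKBIE encodes IkB epsilon (minus strand, chr6:44225902-44233500; 6 exons), and it fell in all 4 comparisons, in 3 of them with the 75th percentile scaling. With the FPKM as deposited no other member did; with the ribosomal protein scaling RELA and RELB did as well, and with a pseudocount of 0.1 RELB did. It was at 1.75, 0.301 and 0.222 FPKM in A673 and at 2.01, 0.464 and 0.269 FPKM in SKNMC. The log2 fold changes between -1.04 and -1.25 understate this drop, because the levels are near the added 1. Without it the transcript stood at 17.2% and 12.7% of DMSO in A673 and at 23.0% and 13.4% in SKNMC.

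TNFAIP3 removes activating ubiquitin chains from signalling adaptors and is itself induced by NF-kB (plus strand, chr6:138188350-138204449; 9 exons). It was at 1.83, 2.20 and 0.950 FPKM in A673 and at 1.43, 1.31 and 0.978 FPKM in SKNMC. The log2 fold changes at 50 nM were 0.18 in A673 and -0.071 in SKNMC, and at 200 nM -0.54 and -0.30, so TNFAIP3 did not pass 2-fold; the SKNMC values became 0.10 and 0.012 with the 75th percentile scaling.

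BIRC2 and BIRC3 encode cIAP1 and cIAP2, ubiquitin ligases that act at the TNF receptor complex and hold back the alternative pathway. They lie side by side on the plus strand of chromosome 11 (BIRC2, chr11:102217941-102249401; BIRC3, chr11:102188214-102210134; 9 exons each). BIRC2 was at 19.7, 15.2 and 8.22 FPKM in A673 and at 15.5, 9.23 and 6.57 FPKM in SKNMC. It fell at 200 nM in both lines (-1.17 and -1.12; -0.83 and -0.62, short of 2-fold, with the 75th percentile scaling) and was at -0.35 and -0.69 at 50 nM. BIRC3 was at 0.639, 0.171 and 0.180 FPKM in A673 and at 0.635, 0.169 and 0.0461 FPKM in SKNMC, below 1 FPKM throughout. The paralogs share few identical stretches: 11 of 6828 windows of 50 bases of the BIRC3 mRNA occur in that of BIRC2, and no window of 100 bases does. How shared reads were divided is not stated, so the split of such reads is uncertain.

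The direct comparison of the doses, 200 nM over 50 nM, was added after the values had been seen. In A673, 0 of 9 active genes were lower at 200 nM past 2-fold, where 7.44% of all active genes were, and 0 were higher, where 0.117% were. In SKNMC, REL alone was lower (1 of 9, log2 ratio -1.33), where 8.39% of all active genes were, and 0 were higher, where 0.370% were. In A673 the lowest values were REL (-0.91), BIRC2 (-0.82), TNFAIP3 (-0.71) and NFKB1 (-0.63), short of the threshold. In SKNMC, NFKB1 (-0.96) and RELA (-0.87) came next to REL, and passed 2-fold with the ribosomal protein scaling (-1.12 and -1.05). NFKB2 had the highest ratio of the 10 genes in both lines, 0.32 and 0.37.

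Ratios of genes within a library do not depend on how libraries are scaled. In A673, RELA made up 69.9%, 53.9% and 60.3% of the summed FPKM of the 5 Rel subunits, from DMSO to the high dose. In SKNMC its share was 69.2%, 60.4% and 59.9%. NFKB1 had 13.0% with DMSO in A673 and 26.9% at 50 nM, and 15.7% and 24.8% in SKNMC; at 200 nM it had 20.1% and 21.5%. The 5 subunits summed to 56.1, 29.3 and 23.7 FPKM in A673 and to 50.8, 36.5 and 19.3 FPKM in SKNMC. Unlike the ratios and shares, these sums depend on how libraries are scaled. For SKNMC at 200 nM the factors against DMSO were 0.658 with the ribosomal protein scaling and 1.48 with the 75th percentile scaling. The ratio of NFKBIA to RELA was 1.07, 1.27 and 1.07 in A673, and 0.639, 0.995 and 1.42 in SKNMC. Thus the listed level of NFKBIA was the higher of the pair in all 3 A673 libraries, and in SKNMC only at 200 nM. Where the ratio was 1.07 or 0.995, the levels lie so close that their order cannot be held against an error. NFKBIA exceeded NFKBIE 24.1-fold in A673 with DMSO and 68.5-fold at 200 nM, and 11.1-fold and 61.2-fold in SKNMC.

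**Figure D4:**
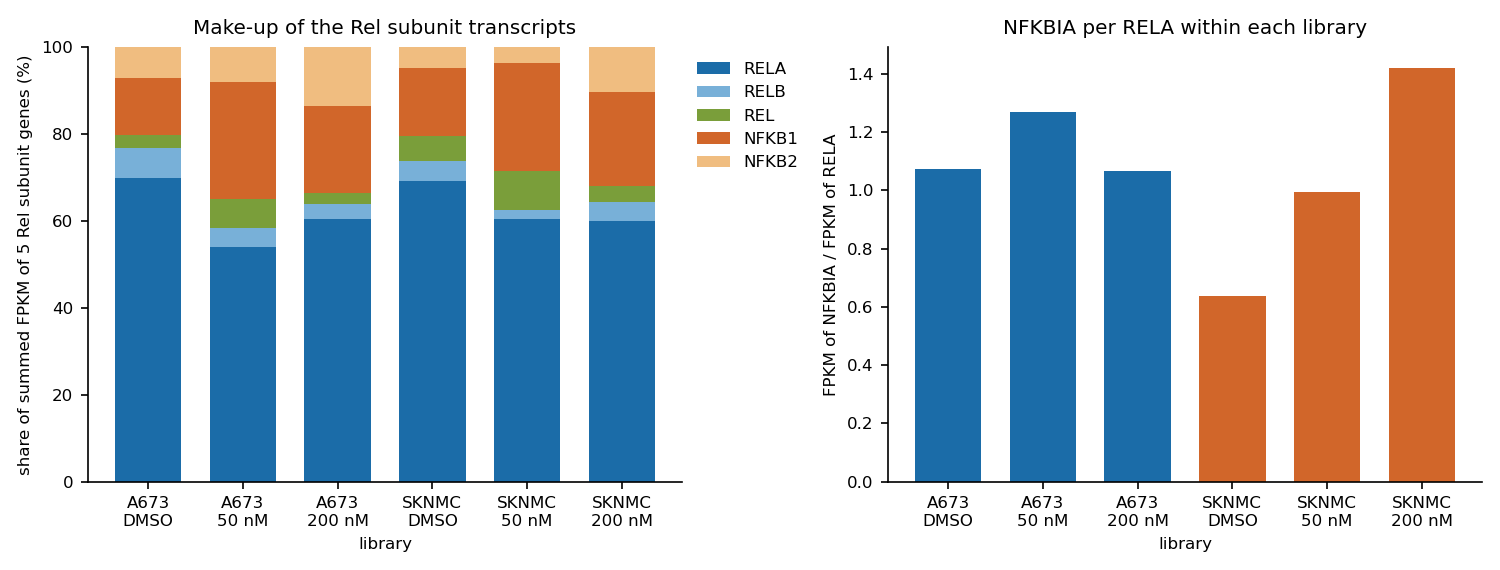
Left, share of each Rel subunit gene in the summed FPKM of the 5 genes (vertical axis, %) in each of the 6 libraries. Right, FPKM of NFKBIA divided by FPKM of RELA in the same libraries. The RELA share is 69.9% and 69.2% with DMSO and between 53.9% and 60.4% with THZ1, and the NFKBIA to RELA ratio goes from 0.639 to 1.42 in SKNMC.

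Several of these genes are known to be driven by NF-kB itself. RefSeq promoter windows (GRCh38.p14) were at hand for 8 of the 10 genes, all but RELB and NFKBIE, and the 250 bases upstream of each start were searched for the kappaB consensus on both strands. It was found for 6 of the 8 genes (NFKB1, NFKB2, REL, NFKBIA, TNFAIP3 and BIRC3), beside 11.8% of the 27305 genes with such a window, and not in the windows of RELA and BIRC2. NFKB1 has it at 1 of its 2 starts and NFKB2 at 2 of 3. The stretches below are shown because these genes, unlike RELA, are the ones whose promoters carry the motif; each runs 5′ to 3′ in the direction of the gene, with the matched bases in capitals. They are NFKBIA (chr14:35404796-35404855, minus strand), TNFAIP3 (chr6:137867167-137867238), NFKB1 (chr4:102501285-102501344), REL (chr2:60881502-60881562), NFKB2 at 1 of its 3 starts (chr10:102394446-102394534) and BIRC3 (chr11:102317260-102317319), the last 5 on the plus strand.
NFKBIA: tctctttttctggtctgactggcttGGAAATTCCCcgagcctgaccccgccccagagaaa
TNFAIP3: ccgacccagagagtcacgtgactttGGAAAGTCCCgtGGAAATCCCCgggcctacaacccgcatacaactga
NFKB1: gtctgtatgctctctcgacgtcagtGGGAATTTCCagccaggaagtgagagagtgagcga
REL: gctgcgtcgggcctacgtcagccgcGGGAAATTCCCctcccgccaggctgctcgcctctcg
NFKB2: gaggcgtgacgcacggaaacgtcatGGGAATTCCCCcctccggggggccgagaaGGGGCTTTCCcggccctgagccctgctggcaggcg
BIRC3: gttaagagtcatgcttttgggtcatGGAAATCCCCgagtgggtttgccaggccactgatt

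The match ends 72 bases before the start in NFKBIA, 46 in TNFAIP3, 40 in NFKB1 and 37 in REL. In TNFAIP3 a pair of matches lies within 22 bases, and the 11 capitals of REL hold 2 overlapping matches, 1 on each strand. NFKB2 and BIRC3 hold further matches, 5 and 2 in all. Of the 6 genes with a match, NFKBIA fell in A673 at both doses and REL in SKNMC at 200 nM, of which NFKBIA at 200 nM alone is left with the 75th percentile scaling; NFKB1, NFKB2 and TNFAIP3 passed 2-fold in none of the 4 comparisons (NFKB1 in SKNMC at 200 nM did with the ribosomal protein scaling), and BIRC3 was not active. A match describes the letters of the window and is not evidence that NF-kB was bound there in these cells.

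The genes also differ in a feature of their mRNA, counted after the values had been seen. AU-rich elements, whose core is ATTTA, mark many short-lived transcripts. In the 3′ untranslated region of the canonical transcript (GENCODE release 44 on GRCh37) the motif was absent from RELA, RELB and NFKBIE. It occurred 1 time in NFKB2, 3 times each in NFKB1, NFKBIA and BIRC2, 5 times in TNFAIP3, 12 times in BIRC3 and 25 times in REL. The region of REL is 9077 bases long. Per kb of the region, NFKB2 had the highest value (6.76, in 148 bases), and REL had 2.75. Whether the motif goes with the changes under THZ1 was not tested. Of the 10190 genes active in both lines that have a coding transcript in these models, 73.8% have at least 1, and the median is 2.

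Other genes of the pathway were taken from lists by role. Of 78 names, 77 were matched, and MAP3K14 was not analysed here. In A673, 15 of 56 active pathway genes fell at 50 nM (26.8%, beside 15.9% of all active genes) and 18 at 200 nM (32.1%, beside 25.3%). In SKNMC, 13 of 52 fell at 50 nM (beside 15.8% of all active genes) and 17 at 200 nM (32.7%, beside 27.3%). These SKNMC counts depend on the scale: with the 75th percentile scaling 6 fell at 50 nM (11.5%, beside 10.3%) and 9 at 200 nM (17.3%, beside 13.4%), and with the ribosomal protein scaling 33 fell at 200 nM (63.5%, beside 51.1%). The median log2 fold changes were -0.38 and -0.49 in A673 and -0.41 and -0.67 in SKNMC. Of 50 pathway genes active in both lines, 7 fell in all 4 comparisons, which share a DMSO library within each line, as did 8.70% of the 10574 genes active in both lines. These 7 were NKIRAS1, BCL3, TAB1, TRAF2, TNFRSF1A, TNFRSF12A and TNFAIP8. With the 75th percentile scaling 4 remained (beside 4.71% of all), without NKIRAS1 (-0.81 at 50 nM in SKNMC), BCL3 (-0.95 there) and TRAF2 (-0.90 and -0.57 in SKNMC), and with the ribosomal protein scaling there were 11 (beside 15.4%). Counts by list below are with FPKM as deposited unless a scaling is named. The shares of all active genes to set beside them are, at 50 and 200 nM, 11.0% and 17.3% in A673 and 10.3% and 13.4% in SKNMC with the 75th percentile scaling, and 21.3% and 34.5% in A673 and 28.0% and 51.1% in SKNMC with the ribosomal protein scaling.

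The receptor gene TNFRSF1A had the largest drop among the active pathway genes at both doses in A673 and at 200 nM in SKNMC; at 50 nM in SKNMC that of the adaptor gene TAB1 (-2.30) was larger, though not with the ribosomal protein scaling. TNFRSF1A, the main receptor for TNF, was at 37.2, 4.66 and 2.39 FPKM in A673 and at 35.4, 6.55 and 3.14 FPKM in SKNMC, with log2 fold changes of -2.75, -3.49, -2.27 and -3.14. TNFRSF12A, the receptor for TWEAK, was the most abundant receptor transcript of A673 with DMSO, at 186 FPKM, and was at 25.8 FPKM in SKNMC, below IL1RAP (61.8) and TNFRSF1A, and its 4 log2 fold changes lay between -1.40 and -2.19. In each line 5 receptors were active, with LTBR active in A673 alone and TNFRSF11A in SKNMC alone. Of these, 2 fell in A673 at each dose (40%, beside 15.9% and 25.3% of all active genes). In SKNMC 2 fell at 50 nM (40%, beside 15.8%) and 3 at 200 nM (60%, beside 27.3%). These SKNMC counts were 3 and 3 with the ribosomal protein scaling and 2 and 2 with the 75th percentile scaling. Of 7 ligands, 2 were active in A673 and none in SKNMC. IL1A was at 2.61 FPKM in A673 with DMSO and 0.00886 FPKM in SKNMC, and fell in A673, to 0.436 and 0.320 FPKM.

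Among adaptors and kinases that carry the signal to IKK, 4 of 13 active genes fell in A673 with the low dose and 6 with the high dose; in SKNMC 3 and 5 fell (1 and 2 with the 75th percentile scaling, which are 7.69% and 15.4%, below and near the shares of all active genes, and 5 and 9 with the ribosomal protein scaling). TAB1, which activates the kinase TAK1, was at 10.7, 1.87 and 2.95 FPKM in A673 and at 10.6, 1.36 and 2.39 FPKM in SKNMC, lower at 50 nM than at 200 nM in both lines. TRAF2, the adaptor that recruits the cIAPs to the TNF receptor complex, was at 10.9, 2.84 and 2.51 FPKM in A673 and at 8.18, 3.21 and 3.49 FPKM in SKNMC. IRAK1, which acts below the interleukin-1 receptor, was the most abundant of this list, at 77.0 and 65.1 FPKM with DMSO, and its 4 values lay between -0.34 and 0.28 and changed sign with the scaling in 3 of the 4.

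Of the IKK and related kinases, 1 of 5 active genes fell at 50 nM in A673 and 2 at 200 nM, and 1 and 2 of 6 in SKNMC. With the 75th percentile scaling these were 0 and 1 in A673 and 1 and 1 in SKNMC, and with the ribosomal protein scaling 4 fell in SKNMC at 200 nM. TBK1, a kinase of innate immune signalling, was at 19.0, 14.6 and 5.55 FPKM in A673 and at 12.0, 8.84 and 2.75 FPKM in SKNMC. With DMSO it was below CHUK in A673 (19.6 FPKM) and below TANK in SKNMC (15.6 FPKM). TBK1 fell at 200 nM in both lines (-1.61 and -1.79) and not at 50 nM (-0.36 and -0.40).

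Of the 6 other genes around the IkB proteins, all active in both lines, 3 fell at each dose in A673, and 4 at 50 nM and 2 at 200 nM in SKNMC. The SKNMC counts were 1 and 2 with the 75th percentile scaling and 4 and 4 with the ribosomal protein scaling, and those of A673 were 3 and 2, and 4 and 3. BCL3, a nuclear IkB protein, was at 2.98, 0.624 and 0.265 FPKM in A673 and at 9.03, 3.42 and 1.41 FPKM in SKNMC. NKIRAS1, a Ras-like protein that binds IkB beta, was at 14.9, 4.80 and 2.98 FPKM in A673 and at 9.19, 3.92 and 2.07 FPKM in SKNMC. Its relative NKIRAS2, the most abundant of this list in SKNMC alone (28.8 FPKM with DMSO, beside 13.4 in A673), had values of -0.80 and -0.20 in A673, the latter 0.15 with the 75th percentile scaling, and in SKNMC it fell at 50 nM (-1.28) and was at -0.74 at 200 nM. With the ribosomal protein scaling NKIRAS2 also passed 2-fold in A673 at 50 nM (-1.005) and in SKNMC at 200 nM (-1.30). The SKNMC value at 200 nM was -0.20 with the 75th percentile scaling.

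Of 14 active ubiquitin regulators, 2 fell at each dose in A673, and 0 at 50 nM and 2 at 200 nM in SKNMC. A count of 2 is 14.3% of the list. The background was 15.9% and 25.3% in A673 and 15.8% and 27.3% in SKNMC, at the low and the high dose. At 50 nM in A673 the list was thus near the background, and the differences from it were not tested. With the 75th percentile scaling the A673 share at 50 nM was 14.3%, beside 11.0%. With the ribosomal protein scaling 10 of 14 fell in SKNMC at 200 nM, beside 51.1%. The latter scaling also gave 4 in A673 at 200 nM and 2 in SKNMC at 50 nM, and the former 0 in SKNMC at 200 nM. UBE2N, the enzyme that builds lysine-63 chains and the most abundant of this list, was at 133, 167 and 128 FPKM in A673 and at 132, 146 and 88.8 FPKM in SKNMC. Its log2 fold changes were 0.33, -0.05, 0.15 and -0.57, and those of A673 at 200 nM and SKNMC at 50 nM changed sign with the scaling. The SKNMC value at 200 nM was -1.16 with the ribosomal protein scaling, past 2-fold, and -0.0051 with the 75th percentile scaling.

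**Figure D5:**
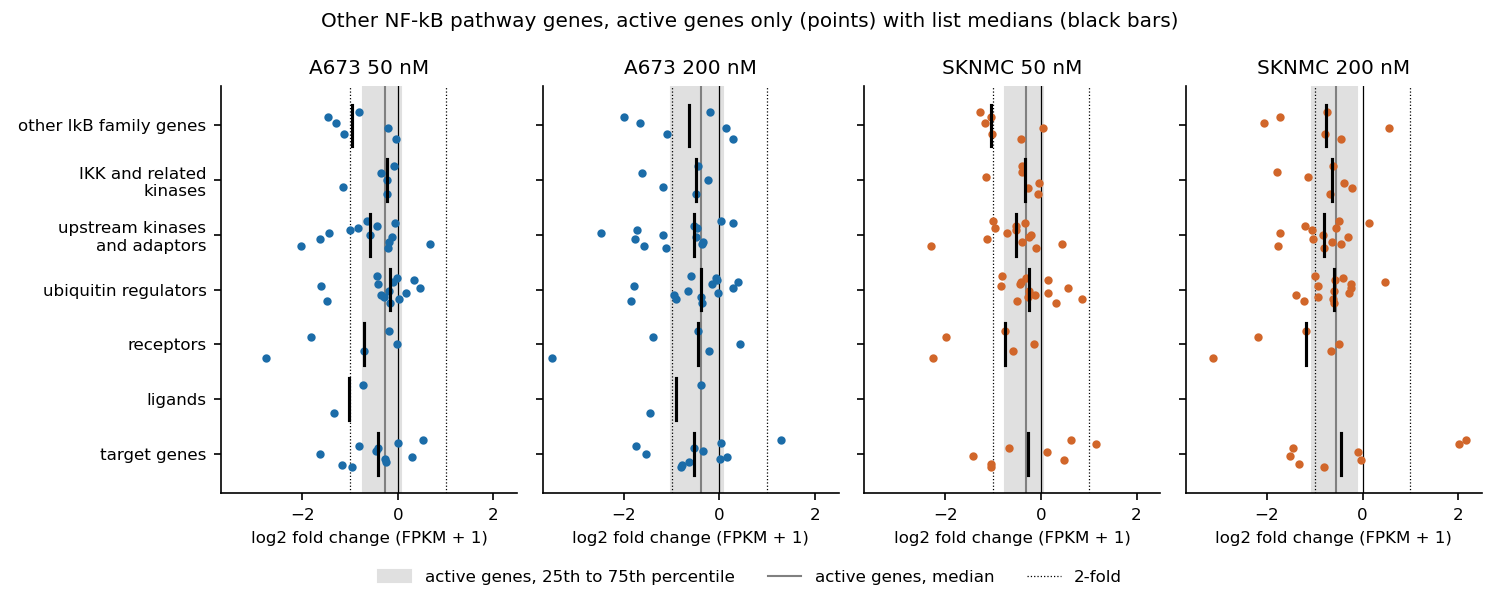
Log2 fold change with 1 added to FPKM (horizontal axes) of the active genes of 7 pathway lists (rows) in the 4 comparisons of THZ1 with DMSO; points are genes, black bars are list medians, the grey band and line are the 25th to 75th percentile and the median of all active genes, and dotted lines mark 2-fold. TNFRSF1A is the leftmost point of the receptors in every panel, and IER3 and GADD45B are the points past 2-fold on the right in SKNMC at 200 nM.

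Genes that NF-kB is known to activate went in several directions. Of 11 active targets in A673, 2 fell at each dose, 0 rose at 50 nM and 1 at 200 nM. Of 8 in SKNMC, 3 fell at each dose, and 1 rose at 50 nM and 2 at 200 nM. With the 75th percentile scaling 1 fell in A673 at 50 nM, and 1 and 2 fell in SKNMC; with the ribosomal protein scaling 4 fell at each dose in A673, and 4 and 3 in SKNMC. As deposited, the share of targets that fell in A673 was 18.2% at each dose, beside a background of 15.9% and 25.3%. The SKNMC share was 37.5% at each dose, beside 15.8% and 27.3%. The 75th percentile scaling gave 9.09% and 18.2% in A673 (beside 11.0% and 17.3%) and 12.5% and 25% in SKNMC (beside 10.3% and 13.4%). The ribosomal protein scaling gave 36.4% at each dose in A673 (beside 21.3% and 34.5%). For SKNMC that scaling gave 50% and 37.5% (beside 28.0% and 51.1%). The differences from the background were not tested. TNFAIP8 fell in all 4 comparisons, from 5.20 to 0.993 and 1.14 FPKM in A673 and from 5.19 to 1.31 and 1.16 FPKM in SKNMC. BCL2L1, which encodes the survival protein BCL-XL, was at 45.9, 25.6 and 13.1 FPKM in A673 and at 16.9, 10.3 and 5.57 FPKM in SKNMC. It fell at 200 nM in both lines (-1.74 and -1.45), though the SKNMC value was -0.95 with the 75th percentile scaling, short of 2-fold. At 50 nM the BCL2L1 values were -0.82 and -0.67, and both were -1.04 with the ribosomal protein scaling, past 2-fold. The chemokine gene CCL2 fell at 50 nM in both lines (-1.16 and -1.04; -0.97 and -0.96 with the 75th percentile scaling) and was at -0.78 and -0.80 at 200 nM. With the ribosomal protein scaling the values at 200 nM were -1.06 in A673, past 2-fold, and -0.99 in SKNMC. With the 75th percentile scaling they were -0.47 and -0.58.

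IER3, an early response gene, rose at 200 nM in both lines. It was at 37.3, 53.8 and 92.3 FPKM in A673 and at 18.4, 28.9 and 85.3 FPKM in SKNMC, with log2 fold changes of 1.28 and 2.16 at 200 nM; with the ribosomal protein scaling the A673 value was 0.93, short of 2-fold. GADD45B, a stress response gene, rose in SKNMC at both doses, from 4.04 to 10.2 and 19.6 FPKM (1.15 and 2.03; 0.78 at 50 nM with the ribosomal protein scaling, short of 2-fold). In A673 it was at 43.0, 43.3 and 44.2 FPKM, with log2 fold changes of 0.0074 and 0.039 that became -0.22 and -0.31 with the ribosomal protein scaling. Whether the lines differ here was not tested.

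SOD2, the mitochondrial superoxide dismutase and the most abundant target with DMSO, was at 72.9, 89.7 and 82.0 FPKM in A673 and at 62.5, 88.0 and 61.0 FPKM in SKNMC. CFLAR, which encodes the caspase-8 inhibitor FLIP, was at 21.8, 16.2 and 14.8 FPKM in A673 and at 15.7, 17.4 and 14.7 FPKM in SKNMC. Neither passed 2-fold, and those of SOD2 at 200 nM in both lines and of CFLAR in SKNMC changed sign with the scaling. IL8, also called CXCL8, was active in A673 alone, at 16.5, 8.01 and 8.99 FPKM, and was at 0.393, 0.0396 and 0.0742 FPKM in SKNMC. Its log2 fold changes in A673 were -0.96 and -0.81, short of 2-fold. They were -1.16 and -1.13 with the ribosomal protein scaling, past 2-fold, and -0.73 and -0.47 with the 75th percentile scaling.

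Of 58 pathway genes active in at least 1 line, 10 were higher in A673 past 2-fold (beside 8.42% of all active genes) and 4 in SKNMC (beside 15.0%); with the ribosomal protein scaling these were 17 (beside 17.8%) and 2 (beside 10.3%). Of the 11 active targets, 5 were higher in A673 and 0 in SKNMC. These 5 were IL8 (3.65), GADD45B (3.13), CCL20 (1.81), CCL2 (1.70) and BCL2L1 (1.39), given as log2 ratios of A673 over SKNMC, of which CCL20 was named after its value was seen. The receptor genes LTBR (3.99) and TNFRSF12A (2.80), the ligand genes IL1A (1.84) and IL1B (1.35) and the IkB family gene NFKBIZ (1.10; 0.96 with the 75th percentile scaling) were higher in A673 as well. The genes higher in SKNMC were IKBKE (-1.53), BCL3 (-1.33), TNFRSF11A (-1.30) and NKIRAS2 (-1.04), of which BCL3 (-0.98) and NKIRAS2 (-0.61) were short of 2-fold with the ribosomal protein scaling. LTBR, IL1B, NFKBIZ, IKBKE and TNFRSF11A were also named afterwards. Some of these genes were active in 1 line alone and entered the counts only through the line where they are high. They are IL8, CCL20, LTBR, IL1A and IL1B for A673, and IKBKE and TNFRSF11A for SKNMC. The counts are therefore no measure of a difference between the lines, which was not tested.

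The genes most like the 3 members with the lowest mean log2 fold change over the 4 comparisons (-1.21 for RELA, -1.13 for NFKBIE and -1.06 for RELB, among members active in both lines) were sought among the genes active in both lines, by the Euclidean distance of the 4 log2 fold changes. For RELA these were ARMCX5 (distance 0.147), BTBD10 (0.180) and CASP2 (0.229), and 4 genes lay within 0.25. For NFKBIE they were FAM35A (0.123), INPP5E (0.149) and KCTD21 (0.156), with 42 genes within 0.25. For RELB they were ZNF283 (0.109), PRPF3 (0.163) and SUZ12 (0.172), with 18 genes within 0.25. The distance covers 6 libraries, and the values of low genes lie in a narrow range because of the added 1.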

How the data were processed

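The authors mapped paired-end reads of 100 bp with STAR (hg19, Ensembl 75 gene models) and, by the paper's methods, estimated FPKM with StringTie, while the submitters' processing notes name Cufflinks. The deposited FPKM table lists 20311 protein-coding and 7109 lincRNA genes in 6 libraries. Its 4 columns of the authors' log2 fold changes of THZ1 against DMSO were not used. The table's title speaks of average expression, but the labels give 1 library per condition. The members and lists were chosen with earlier results of these data known.

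Changes were log2((FPKM + 1) / (FPKM + 1)), counted past 2-fold among genes above 1 FPKM with DMSO (for the baseline, in at least 1 line), with Python 3.11.15, numpy 2.4.6 and pandas 2.3.3; counting was tested on simulated data. A symbol listed more than once was read from the gene with the highest mean FPKM. Named genes were the 10 members, pathway genes past 2-fold the same way in all 4 comparisons, the most abundant gene of each list by the mean of the DMSO libraries, and targets above 5 FPKM with DMSO. By the most frequent ratio of low values, THZ1 libraries had 89.6% to 96.7% of the depth of their DMSO library, but at most 5.08% of low values lay there, so this is rough. Some exact zeros may be failed estimates. PECAM1 and MAP3K14 were not analysed here. Use of strand in counting is not stated: RELA, NFKB1, TNFAIP3, BIRC2 and BIRC3 overlap an opposite-strand gene in GENCODE, and REL holds 2 genes on its own strand, none of them in the table, and reads of such pairs cannot be told apart.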

Additional observations from a re-analysis of the deposited data

How the results depend on the processing

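No test and no paired analysis was made: each condition has 1 library, and the lines were not used as blocks. Shares in brackets are of all active genes at the same setting. With a pseudocount of 0.1, the members past 2-fold lower in SKNMC at 50 nM were 2 of 9 in place of 1 (22.5%), and between 50 and 200 nM they were 2 in place of 0 in A673 (11.7%) and 2 in place of 1 in SKNMC (13.0%). With genes above 5 FPKM with DMSO, which leaves 4 of the 10, 2 and 3 fell in A673 (16.3% and 26.8%) and 0 and 2 in SKNMC (15.8% and 29.6%) at 50 and 200 nM, and 0 were lower at 200 than at 50 nM in SKNMC (10%). With the 75th percentile scaling, 2 fell in A673 at 50 nM (11.0%), 0 in SKNMC at 50 nM (10.3%) and 1 in SKNMC at 200 nM (13.4%). With the ribosomal protein scaling, 4 fell in SKNMC at 50 nM (28.0%), 3 were lower at 200 than at 50 nM in SKNMC (12.3%), and 1 was higher in A673 with DMSO (17.8%). With a 1.5-fold threshold, 4 fell in SKNMC at 50 nM (33.5%), 4 in A673 (18.0%) and 3 in SKNMC (22.1%) were lower at 200 than at 50 nM, and 1 was higher in A673 with DMSO (17.6%). The other counts of members stayed within 1.5 times their value. Of the pathway genes, 6 in place of 13 fell in SKNMC at 50 nM and 9 in place of 17 at 200 nM with the 75th percentile scaling, and 33 at 200 nM with the ribosomal protein scaling and 32 with a 1.5-fold threshold. Pathway genes higher in A673 with DMSO were 17 in place of 10 with the ribosomal protein scaling or a 1.5-fold threshold and 6 above 5 FPKM; those higher in SKNMC were 2, 7 and 2 in place of 4. Pathway genes that rose were 0 in place of 1 in A673 at 200 nM and in SKNMC at 50 nM with the ribosomal protein scaling, 0 in SKNMC at 50 nM and 1 in place of 2 at 200 nM above 5 FPKM, 2 in place of 1 in SKNMC at 50 nM with the 75th percentile scaling, and 1 in place of 0 in A673 and 3 in place of 1 in SKNMC at 50 nM with a 1.5-fold threshold. Of all active genes of SKNMC at 200 nM, 13.4% fell with the 75th percentile scaling and 51.1% with the ribosomal protein scaling, in place of 27.3%. Fewer genes pass the 5 FPKM filter by its construction; the cause of the other shifts was not tested. Among all active genes, those that rose made up 1.67% of the genes past 2-fold in SKNMC at 200 nM and 24.4% with the 75th percentile scaling, and those higher in A673 with DMSO made up 35.9% and 63.4% with the ribosomal protein scaling. No called value of a member changed sign. Without read counts, no counting error could be given, which matters most for the genes near 1 FPKM.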
